A study of Mus musculus with 18 samples.

Results

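The surface ectoderm and keratin genes described here are 10 genes of embryonic skin and other epithelia, of 23929 genes listed in the deposited expression tables of developing mouse hindlimb. They were found by symbol, and all 10 were listed: the simple keratins Krt8, Krt18 and Krt19, the basal keratins Krt5, Krt14 and Krt15, the transcription factor genes Trp63 and Grhl3, and the adhesion genes Epcam and Cdh1. All 10 passed the filter on low counts in every comparison. RNA sequencing covered 18 libraries of C57BL/6 mouse embryos in 6 groups of 3. At embryonic day 9.5 (E9.5) the tissue was the hindlimb field together with trunk, from Pitx1 KO (Pitx1-/-) and WT embryos. At E11.5 and at E12.5 it was the hindlimb, again from Pitx1 KO and WT embryos. Pitx1 encodes a homeodomain factor of the hindlimb, and the labels name no part of the gene that the KO allele lacks. The study asked how gene expression in the hindlimb differs without PITX1 across these stages. The labels do not say whether libraries of a group came from separate embryos, so each p-value reflects how far these libraries differ, and part of that may be technical.

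Surface ectoderm covers the embryo as a single layer of cells and later becomes the stratified epidermis. Keratins are paired filament proteins of epithelia: KRT8, KRT18 and KRT19 belong to simple, single-layered epithelia, and KRT5, KRT14 and KRT15 to the basal layer of stratified ones. The p63 protein, the product of Trp63, is the regulator that commits surface ectoderm to epidermis, GRHL3 acts in barrier formation and epithelial closure, and EPCAM and E-cadherin (Cdh1) hold epithelial cells together in skin as well as in gut, kidney and other epithelia. In limb buds the ectoderm is a thin cover over a mass of mesenchyme, and its apical ridge secretes the growth factors that drive outgrowth.

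Libraries held 14312425 to 60465013 fragments assigned to genes, and at E9.5 and E11.5 depth moved with genotype. At E9.5 the range was 14312425 to 18490604 fragments in Pitx1 KO and 20603210 to 39882668 in WT, and at E11.5 it was 44827257 to 60465013 in Pitx1 KO and 38644550 to 40832729 in WT. At E12.5 it was 22290553 to 29900333 in Pitx1 KO and 24216636 to 39289012 in WT. Pitx1 RNA was lower in every KO library than in every WT library of its stage, with log2 fold changes of -1.29, -2.57 and -2.92 at the 3 stages in order. The last missed an adjusted p of 0.05 (0.125, edgeR), and E12.5 WT replicate 3 had 44.6 RPKM of Pitx1, against 114.2 and 112.5 in WT replicates 1 and 2. The same library stands apart in keratins, and WT replicate 3 and KO replicate 2 stand apart at E9.5. Counts of the 10 genes and of listed genes between stages are also given without these libraries.

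The main pattern was a change of keratin between the stages in both genotypes. The E9.5 samples held trunk, so between E9.5 and E11.5 stage and tissue cannot be told apart. At E9.5 Krt18, Krt8 and Krt19 stood highest among the 10 genes, and at E11.5 and E12.5 Krt5 and Krt14 did. From E9.5 to E11.5 the simple keratins fell and the basal keratins, Trp63 and Grhl3 rose, while Epcam did not pass the test in either genotype. In none of the 3 stages did any of the 10 genes pass the test between Pitx1 KO and WT.

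**Figure D1:**
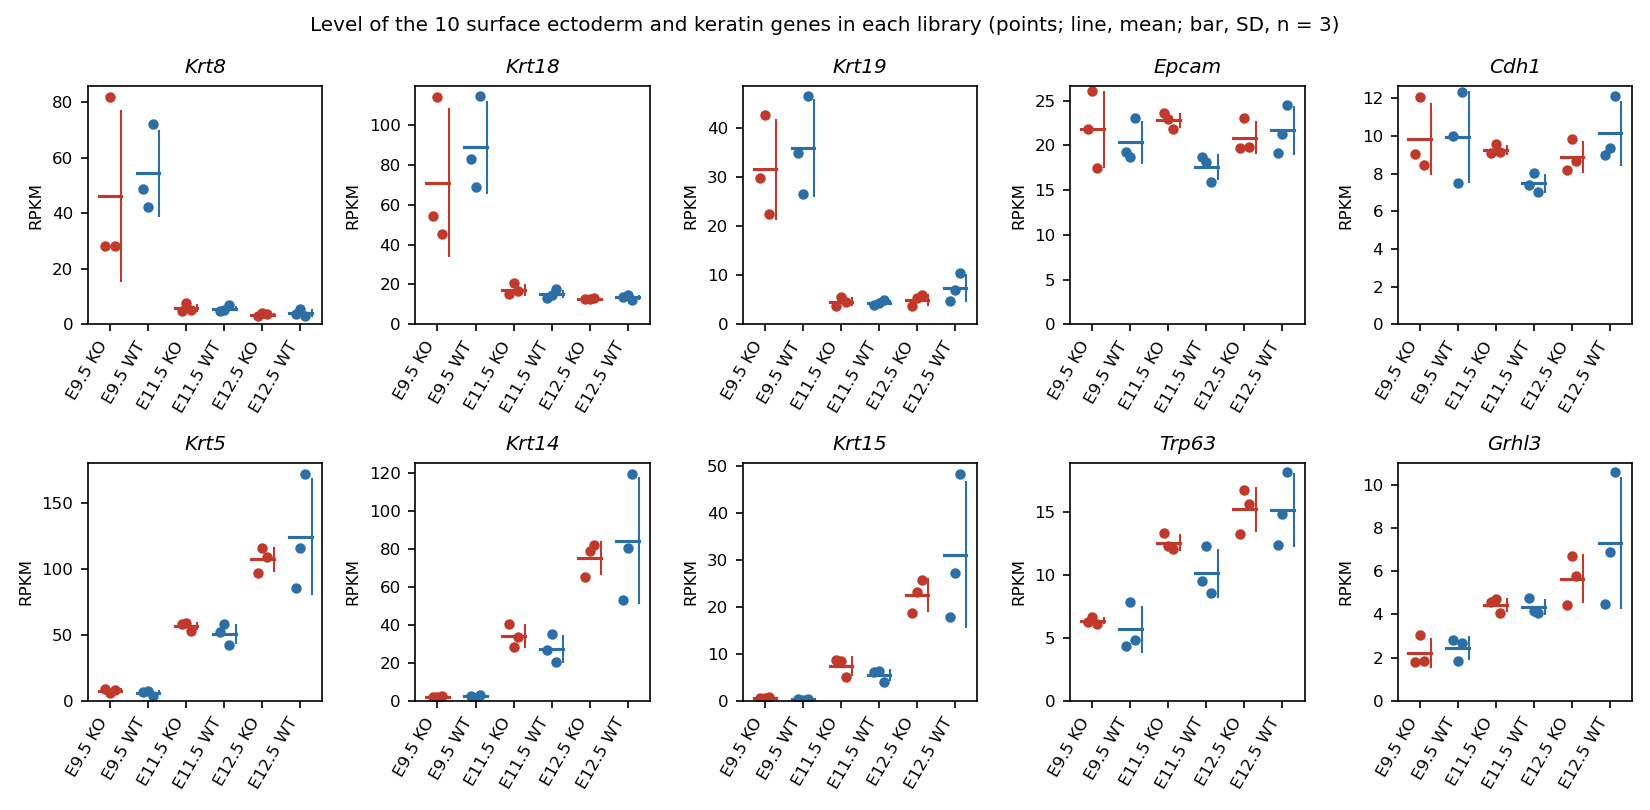
RPKM (vertical axis, linear) of each of the 10 genes in every library, by stage and genotype (KO red, WT blue; points, libraries; line, mean; bar, SD, n = 3 each). Krt8, Krt18 and Krt19 stand highest at E9.5, Krt5, Krt14 and Krt15 at E12.5, and Epcam and Cdh1 stay within a narrow range; E12.5 WT replicate 3 is the highest point for Krt5 (172 RPKM) and Krt14 (119 RPKM).

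Levels were given as RPKM, read counts scaled by the authors for gene length and library size, and stages were normalized in separate tables, so RPKM across stages is a description. Differences between stages were tested on the fragment counts in 1 edgeR fit, with a call at an adjusted p under 0.05 over all genes tested. At E9.5 the order by mean RPKM was Krt18, Krt8, Krt19, Epcam, Cdh1, Krt5 and Trp63 in both genotypes, with Krt14, Grhl3 and Krt15 below them at means under 3 RPKM. Neighbours from Krt18 to Krt19 overlapped between libraries in both genotypes, and Epcam stood above Cdh1 in every library. At E11.5 the order began with Krt5, Krt14, Epcam, Krt18, Trp63 and Cdh1 in both genotypes, and Krt5 did not overlap Krt14, nor Krt14 Epcam, in either. At E12.5 it began with Krt5, Krt14, Krt15, Epcam, Trp63, Krt18 and Cdh1 in both genotypes, and Krt8 stood last. Krt5 and Krt14 overlapped at E12.5 in WT but not in Pitx1 KO.

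Krt8 and Krt18 encode partners of 1 filament, lie side by side on chromosome 15 with 0 protein-coding genes between them, and changed together. Krt5 lies on the same chromosome, beyond 10 other protein-coding keratin genes (RefSeq, GRCm38.p6), and changed the opposite way. The 250 bases upstream of these 3 genes, from RefSeq on GRCm38.p6, are shown because these are neighbouring keratin genes with opposite changes. Krt5 is chr15:101712906-101713155 on the minus strand, Krt8 is chr15:102004343-102004592 on the minus strand and Krt18 is chr15:102027966-102028215 on the plus strand, each written 5′ to 3′ in the direction of the gene. Capitals mark motif matches on either strand.
Krt5: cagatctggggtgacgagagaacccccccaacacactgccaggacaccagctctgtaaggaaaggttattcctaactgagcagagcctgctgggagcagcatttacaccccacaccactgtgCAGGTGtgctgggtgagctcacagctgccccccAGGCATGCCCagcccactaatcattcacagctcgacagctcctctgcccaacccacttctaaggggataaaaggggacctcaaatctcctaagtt
Krt8: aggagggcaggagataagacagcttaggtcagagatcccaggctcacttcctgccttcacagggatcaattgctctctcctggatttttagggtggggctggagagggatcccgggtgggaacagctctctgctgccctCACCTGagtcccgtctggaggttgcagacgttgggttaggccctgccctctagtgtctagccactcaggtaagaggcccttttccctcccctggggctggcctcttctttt
Krt18: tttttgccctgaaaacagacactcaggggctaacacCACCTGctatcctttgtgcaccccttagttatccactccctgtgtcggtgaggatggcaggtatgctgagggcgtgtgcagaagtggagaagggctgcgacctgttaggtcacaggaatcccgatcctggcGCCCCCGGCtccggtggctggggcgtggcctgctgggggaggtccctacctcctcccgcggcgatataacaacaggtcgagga
The capitals CAGGTG or CACCTG are the E-box that Snail and Zeb repressors bind, at -128 to -123 in Krt5, -111 to -106 in Krt8 and -214 to -209 in Krt18, counted back from the annotated start. The longer run in Krt5, at -95 to -86, matches the half-site of the p53 family, to which p63 belongs. The run at -83 to -75 in Krt18 matches GCCNNNGGC, the AP-2 consensus. Of the 10 genes, 6 had an upstream sequence in the table (Krt5, Krt8, Krt14, Krt18, Epcam and Grhl3), and 5 of the 6, Krt14 excepted, held CACCTG on either strand, against 17.2% of 32851 upstream sequences of the same length. The p53 family half-site was in 7.13% of those sequences and GCCNNNGGC in 13.7%. The exact string TATAAA, a core form of the TATA box, was in none of the 6, against 12.4% of all. Other forms of the TATA box were not searched. The AP-1 motif TGANTCA was also in none, against 6.75%, and so was the Grainyhead motif AACCGGTT, against 0.116%. The GC box GGGCGG was in Epcam and Grhl3, against 32.7% of all. These are matches of letters, not sites shown to be bound.

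Krt8 measured 28.4, 81.8 and 28.1 RPKM in Pitx1 KO and 48.8, 42.2 and 71.9 in WT at E9.5. At E11.5 it measured 4.91, 7.74 and 5.18 RPKM in Pitx1 KO and 4.89, 5.33 and 6.80 in WT, and at E12.5 2.98, 4.01 and 3.60 in Pitx1 KO and 3.66, 5.58 and 3.01 in WT. Every E9.5 library stood above every later library, and the genotypes overlapped at each stage. Between E11.5 and E9.5 Krt8 fell by 8.14-fold in Pitx1 KO (-3.03 ± 0.45 SE on the log2 scale, adjusted p = 0.000485, edgeR) and by 10.1-fold in WT (-3.33 ± 0.46 SE, adjusted p = 0.000249, edgeR). In a bulk sample, fewer cells of a type and less RNA per cell cannot be told apart, and between E9.5 and E11.5 stage cannot be told apart from the trunk tissue that the E9.5 samples held. Among all 15353 genes tested, 50.5% were called in Pitx1 KO and 55.8% in WT.

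Krt18 measured 54.3, 113.7 and 45.1 RPKM in Pitx1 KO and 82.8, 68.8 and 114.3 in WT at E9.5. At E11.5 it measured 14.98, 20.8 and 16.6 RPKM in Pitx1 KO and 13.3, 14.9 and 17.5 in WT, and at E12.5 12.8, 12.7 and 13.3 in Pitx1 KO and 13.6, 14.9 and 12.3 in WT. It fell between E11.5 and E9.5 by 4.29-fold in Pitx1 KO (-2.10 ± 0.34 SE, adjusted p = 0.000681, edgeR) and by 6.13-fold in WT (-2.62 ± 0.35 SE, adjusted p = 0.000161, edgeR). Krt18 over Krt8, a ratio of RPKM levels, was 1.63 ± 0.26 in Pitx1 KO and 1.64 ± 0.056 in WT at E9.5 (SD, n = 3 each). It was 2.98 ± 0.27 in Pitx1 KO and 2.69 ± 0.12 in WT at E11.5, and 3.72 ± 0.57 in Pitx1 KO and 3.49 ± 0.74 in WT at E12.5. The lowest E11.5 ratio, 2.57, stood above the highest E9.5 ratio, 1.91. Krt8 and Krt18 have near-identical copies in the genome, and the assignment of shared fragments is not given in the sources used here, so their levels are uncertain to that extent.

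Krt19, a keratin of simple epithelia and of early skin, ranged from 22.4 to 42.6 RPKM in Pitx1 KO and from 26.6 to 46.4 in WT at E9.5. At E11.5 it ranged from 3.78 to 5.58 RPKM in Pitx1 KO and from 3.88 to 5.0 in WT. It fell by 7.16-fold in Pitx1 KO (-2.84 ± 0.26 SE, adjusted p = 3.42e-06, edgeR) and by 8.58-fold in WT (-3.10 ± 0.26 SE, adjusted p = 1.41e-06, edgeR). All 3 simple keratins therefore fell in both genotypes, while the genes called lower were 25.5% of all tested in Pitx1 KO and 27.6% in WT.

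The level of simple keratins at E9.5 varied between libraries of the same genotype. KO replicate 2 and WT replicate 3 held the highest Krt8, Krt18, Krt19, Epcam and Cdh1 of their genotype and the lowest Krt5. The same pair held the most Cdx2, a gene of caudal embryonic tissue and hindgut, with 26.4 RPKM against 8.17 and 4.02 in the other KO libraries, and 40.1 RPKM against 14.1 and 6.80 in the other WT libraries. T, a gene of notochord and tail bud, measured 16.9 RPKM in KO replicate 2 and 21.3 in WT replicate 3, against at most 5.36 in the other KO libraries and 7.50 in the other WT libraries. The other gut endoderm genes of the list of 10 summed to 23.0 RPKM in KO replicate 2, against 15.6 and 18.3, and to 23.6 in WT replicate 3, against 16.9 and 19.9. Foxa2, an endoderm regulator on that list, measured 4.24 RPKM in KO replicate 2 and 5.002 in WT replicate 3, within the range of the other libraries of its genotype, and Cldn18 was at 0 in every library. The neuroepithelium list of 5 genes was lowest in the same pair, at 69.5 RPKM in KO replicate 2 against 104.8 and 106.5, and at 70.3 in WT replicate 3 against 86.1 and 91.8. The part of these tissues in the keratin levels was not tested.

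**Figure D2:**
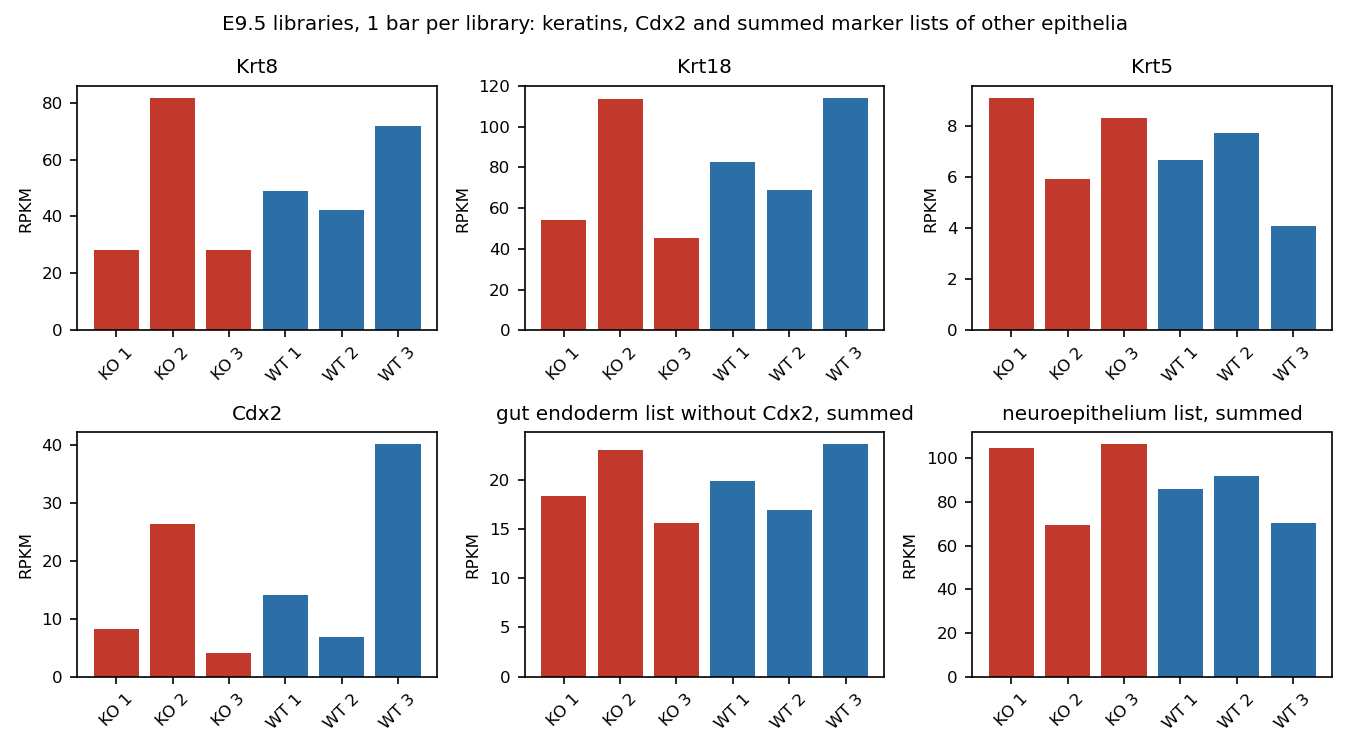
RPKM (vertical axis, linear) in the 6 libraries of E9.5, 1 bar per library, KO (red) left of WT (blue), for Krt8, Krt18, Krt5, Cdx2 and the summed gut endoderm genes without Cdx2 and neuroepithelium genes. KO replicate 2 and WT replicate 3 have the highest Krt8 (81.8 and 71.9 RPKM) and Cdx2 (26.4 and 40.1 RPKM) and the lowest Krt5 of their genotype.

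With both of these libraries left out, an alternative added after the data were seen, the same 8 members were called in Pitx1 KO and 9 in WT between E11.5 and E9.5. Over all 15547 genes tested, 47.2% were called in Pitx1 KO and 54.3% in WT in that setting. The fall of Krt8 then had a log2 fold change of -2.32 in Pitx1 KO and -3.08 in WT, and that of Krt18 -1.59 in Pitx1 KO and -2.40 in WT. The libraries left out held the highest Krt8 and Krt18 of their genotype, so smaller falls follow from that choice. Across these stages, with all libraries, all 9 tested gut endoderm genes, all 3 notochord genes and all 5 neuroepithelium genes fell in both genotypes. Other lists were mixed: of 8 tested nephric duct and mesothelium genes 5 fell and 2 rose in each genotype. Of 5 tested germ cell genes 1 fell in Pitx1 KO and 2 in WT, and 0 rose. Genes called lower were 25.5% of all tested in Pitx1 KO and 27.6% in WT. Without those libraries 8 gut endoderm genes were called lower in Pitx1 KO and 9 in WT, 2 notochord genes in each and 5 neuroepithelium genes in each. The summed gut list ranged from 19.6 to 49.4 RPKM in Pitx1 KO and from 23.7 to 63.8 in WT at E9.5, and from 2.33 to 3.38 in Pitx1 KO and from 3.09 to 3.59 in WT at E11.5. The part of these tissues in the fall of the simple keratins was not tested.

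Krt14, the partner of Krt5 in basal epidermis, changed most of the 10 genes between E9.5 and E11.5 in Pitx1 KO. It measured 2.19, 2.24 and 2.42 RPKM in Pitx1 KO and 2.33, 1.62 and 2.99 in WT at E9.5. At E11.5 it measured 40.5, 28.1 and 33.7 RPKM in Pitx1 KO and 26.7, 34.99 and 20.5 in WT, and at E12.5 65.2, 78.5 and 82.1 in Pitx1 KO and 52.9, 80.5 and 119.4 in WT. No library of a later stage overlapped one of an earlier stage, in either genotype. Between E11.5 and E9.5 Krt14 rose 14.2-fold in Pitx1 KO (3.83 ± 0.24 SE, adjusted p = 9.15e-08, edgeR) and 11.1-fold in WT (3.48 ± 0.23 SE, adjusted p = 1.16e-07, edgeR). Genes called higher were 25% of all tested in Pitx1 KO and 28.3% in WT.

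Krt15, a basal keratin that lies 2 protein-coding genes from Krt14 on chromosome 11 (RefSeq, GRCm38.p6), measured 0.680, 0.573 and 0.872 RPKM in Pitx1 KO and 0.479, 0.235 and 0.404 in WT at E9.5. Each of these values rested on few reads, 16 to 21 fragments in Pitx1 KO and 8 to 31 in WT. At E11.5 Krt15 measured 8.74, 8.52 and 5.003 RPKM in Pitx1 KO and 6.15, 6.34 and 3.96 in WT, and at E12.5 18.6, 23.2 and 25.8 in Pitx1 KO and 17.96, 27.2 and 48.4 in WT. It rose 10-fold in Pitx1 KO (3.32 ± 0.32 SE, adjusted p = 2.13e-06, edgeR) and 13.5-fold in WT (3.75 ± 0.33 SE, adjusted p = 6.69e-07, edgeR) between E11.5 and E9.5. Krt15 lies next to Krt19 with 0 protein-coding genes between them, and that neighbour fell over the same interval.

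Krt5 measured 9.10, 5.93 and 8.30 RPKM in Pitx1 KO and 6.66, 7.71 and 4.06 in WT at E9.5. At E11.5 it measured 58.1, 59.0 and 52.98 RPKM in Pitx1 KO and 51.9, 57.9 and 42.6 in WT. Every E11.5 library stood above every E9.5 library, and Krt5 rose 6.93-fold in Pitx1 KO (2.79 ± 0.22 SE, adjusted p = 1.25e-06, edgeR) and 7.86-fold in WT (2.97 ± 0.22 SE, adjusted p = 5.74e-07, edgeR). Krt5 over Krt14, a ratio of RPKM levels, was 3.41 ± 0.75 in Pitx1 KO and 2.99 ± 1.7 in WT at E9.5 (SD, n = 3 each). It was 1.70 ± 0.35 in Pitx1 KO and 1.89 ± 0.22 in WT at E11.5, and 1.43 ± 0.092 in Pitx1 KO and 1.5 ± 0.098 in WT at E12.5. The ratio of Krt14 to Krt8, a basal over a simple keratin, ranged from 0.0274 to 0.086 in Pitx1 KO and from 0.0385 to 0.0478 in WT at E9.5. It ranged from 3.63 to 8.26 in Pitx1 KO and from 3.01 to 6.56 in WT at E11.5, and from 19.6 to 22.8 in Pitx1 KO and from 14.4 to 39.6 in WT at E12.5. The ratio of Krt14 to Krt8 overlapped between genotypes at every stage and between no 2 stages. That of Krt5 to Krt14 did overlap between stages. In WT it ranged from 1.36 to 4.75 at E9.5 and from 1.65 to 2.08 at E11.5. In Pitx1 KO it ranged from 1.43 to 2.1 at E11.5 and from 1.32 to 1.48 at E12.5.

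Trp63 measured 6.27, 6.66 and 6.11 RPKM in Pitx1 KO and 4.38, 7.81 and 4.86 in WT at E9.5. At E11.5 it measured 13.3, 12.3 and 12.01 RPKM in Pitx1 KO and 9.48, 12.3 and 8.55 in WT, so that the stages did not overlap in either genotype. It rose 2.20-fold in Pitx1 KO (1.14 ± 0.17 SE, adjusted p = 9.57e-05, edgeR) and 1.85-fold in WT (0.89 ± 0.17 SE, adjusted p = 0.000535, edgeR), less than any basal keratin in either genotype. Grhl3 rose 1.91-fold in Pitx1 KO (0.93 ± 0.22 SE, adjusted p = 0.00291, edgeR) and 1.68-fold in WT (0.75 ± 0.22 SE, adjusted p = 0.0093, edgeR). Its levels at E9.5 ranged from 1.79 to 3.04 RPKM in Pitx1 KO and from 1.84 to 2.82 in WT, and at E11.5 from 4.07 to 4.70 in Pitx1 KO and from 4.09 to 4.77 in WT, with no overlap between the stages.

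Epcam and Cdh1, which simple and stratified epithelia both express, differed less between these stages. Epcam measured 21.8, 26.1 and 17.5 RPKM in Pitx1 KO and 19.2, 18.7 and 23.1 in WT at E9.5. At E11.5 it measured 23.6, 22.9 and 21.9 RPKM in Pitx1 KO and 18.7, 18.1 and 15.9 in WT. Its log2 fold change between these stages was -0.01 ± 0.13 SE in Pitx1 KO (adjusted p = 0.954, edgeR) and -0.28 ± 0.13 SE in WT (adjusted p = 0.0789, edgeR), and neither passed. Cdh1 measured 9.07, 9.58 and 9.13 RPKM in Pitx1 KO and 7.40, 8.01 and 7.04 in WT at E11.5, and 9.04, 12.04 and 8.44 in Pitx1 KO and 9.99, 7.48 and 12.3 in WT at E9.5. Its log2 fold change was -0.16 ± 0.16 in Pitx1 KO, which did not pass (adjusted p = 0.433, edgeR), and -0.48 ± 0.16 in WT, which did (adjusted p = 0.0196, edgeR). The WT call was lost without E9.5 WT replicate 3 (adjusted p = 0.108, edgeR), E11.5 WT replicate 1 (0.0517) or E11.5 WT replicate 3 (0.0635), and the difference between the genotypes did not pass (0.32 ± 0.23 SE, adjusted p = 0.514, edgeR). Epcam over Cdh1, a ratio of RPKM levels, had means between 2.10 and 2.46 in the 6 groups.

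**Figure D3:**
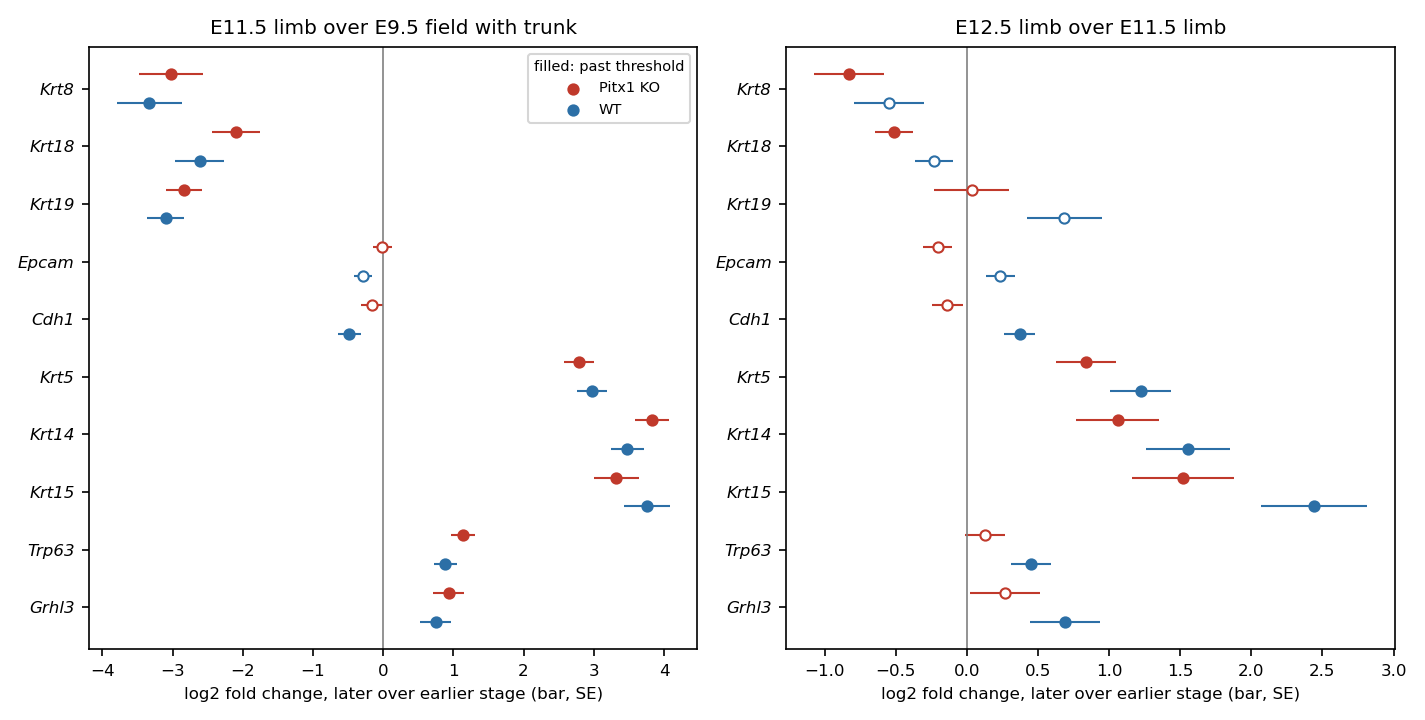
Log2 fold change of the 10 genes between stages (horizontal axis, later over earlier stage; points, estimate; bars, SE; filled, past the threshold), Pitx1 KO (red) above WT (blue) for each gene. On the left Krt8, Krt18 and Krt19 lie between -3.33 and -2.10, and Krt5, Krt14 and Krt15 between 2.79 and 3.83; on the right Krt15, Krt14 and Krt5 lie between 0.84 and 2.44.

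Between E12.5 and E11.5, both hindlimb, the basal keratins rose further. In Pitx1 KO 3 of the 10 genes rose, Krt15, Krt14 and Krt5, and 2 fell, Krt8 and Krt18, while 41.4% of 15305 genes were called in all (20.4% higher, 21.1% lower). In WT 6 of the 10 rose, those 3 with Cdh1, Trp63 and Grhl3, and 0 fell, while 33.3% were called (17.0% higher, 16.3% lower). Krt15 rose 2.87-fold in Pitx1 KO (1.52 ± 0.36 SE, adjusted p = 0.00761, edgeR) and 5.43-fold in WT (2.44 ± 0.37 SE, adjusted p = 0.00139, edgeR). Krt14 rose 2.09-fold in Pitx1 KO (1.06 ± 0.29 SE, adjusted p = 0.0159, edgeR) and 2.94-fold in WT (1.55 ± 0.29 SE, adjusted p = 0.00387, edgeR). Krt5, at 96.8, 116.0 and 108.7 RPKM in Pitx1 KO and 85.1, 115.8 and 172.1 in WT at E12.5, rose 1.79-fold in Pitx1 KO (adjusted p = 0.0100, edgeR) and 2.34-fold in WT (adjusted p = 0.00229, edgeR). The order of these estimates, Krt15 above Krt14 above Krt5, was the same in both genotypes.

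Krt8 fell by 1.78-fold in Pitx1 KO (-0.83 ± 0.24 SE, adjusted p = 0.0158, edgeR), with a log2 fold change of -0.55 ± 0.24 in WT that did not pass (adjusted p = 0.0989, edgeR). Krt18 fell by 1.43-fold in Pitx1 KO (-0.51 ± 0.13 SE, adjusted p = 0.00873, edgeR), with -0.23 ± 0.13 in WT (adjusted p = 0.199, edgeR). With all 18 libraries in 1 fit neither the Krt8 call (adjusted p = 0.136) nor the Krt18 call (adjusted p = 0.184, edgeR) in Pitx1 KO was kept. Without E11.5 KO replicate 2 the Pitx1 KO calls of Krt8 (adjusted p = 0.0821) and Krt14 (0.0630) were lost. The call of Krt8 was also lost without E12.5 KO replicate 1 (0.0598), and that of Krt14 without E11.5 KO replicate 3 (0.0511) or E12.5 KO replicate 3 (0.0526, edgeR). Krt19 did not pass in Pitx1 KO (0.03 ± 0.27 SE) or in WT (0.69 ± 0.26 SE, adjusted p = 0.0613, edgeR), and neither did Epcam (-0.21 ± 0.10 in Pitx1 KO and 0.24 ± 0.10 in WT). The Krt19 rise in WT passed with DESeq2 (adjusted p = 0.0380) and without E12.5 WT replicate 1 (adjusted p = 0.0149, edgeR), as the Epcam rise did without the same library (adjusted p = 0.0344, edgeR). The fall of Krt8 in WT passed without E12.5 WT replicate 2 (adjusted p = 0.0238, edgeR).

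At E12.5 Epcam measured 19.8, 23.0 and 19.8 RPKM in Pitx1 KO and 19.2, 21.3 and 24.6 in WT, and Cdh1 measured 8.18, 9.84 and 8.65 in Pitx1 KO and 8.96, 9.35 and 12.1 in WT. Trp63 measured 13.2, 16.7 and 15.6 RPKM in Pitx1 KO and 12.3, 14.8 and 18.2 in WT, and Grhl3 ranged from 4.45 to 6.72 in Pitx1 KO and from 4.48 to 10.6 in WT. WT replicate 3 was the highest library for each of these 4 genes, and the genotypes overlapped. The WT rises of Cdh1 (0.37 ± 0.11 SE, adjusted p = 0.0206, edgeR), Trp63 (0.45 ± 0.14 SE, adjusted p = 0.0285, edgeR) and Grhl3 (0.69 ± 0.25 SE, adjusted p = 0.0475, edgeR) had no counterpart past the threshold in Pitx1 KO, and the difference between the genotypes did not pass for any of them (adjusted p from 0.368 to 0.697, edgeR).

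E12.5 WT replicate 3 stood apart from the other libraries of its stage. It held the highest Krt5, Krt14, Krt15, Krt19, Epcam, Cdh1, Trp63 and Grhl3 of the 6 E12.5 libraries. It also held 9.25 RPKM of Krt1 and 10.3 of Krt10, keratins of the differentiating epidermis, against at most 1.16 and 3.13 in the other 5 libraries. Krtdap, another gene of differentiating keratinocytes, measured 9.80 RPKM there and at most 0.334 elsewhere at E12.5. The epidermal differentiation list, 9 genes in the tables, summed to 41.3 RPKM in WT replicate 3, against 10.4 to 12.6 in Pitx1 KO and 9.95 and 11.9 in the other WT libraries. Fgf8, the growth factor of the apical ridge, was lowest there, at 0.974 RPKM, against 3.02 to 4.47 in Pitx1 KO and 1.93 and 3.74 in the other WT libraries. The limb mesenchyme list of 14 genes was also highest there, at 2286 RPKM, against 1726 to 1812 in Pitx1 KO and 1811 and 1974 in the other WT libraries, and Pitx1 was lowest of the WT libraries.

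**Figure D4:**
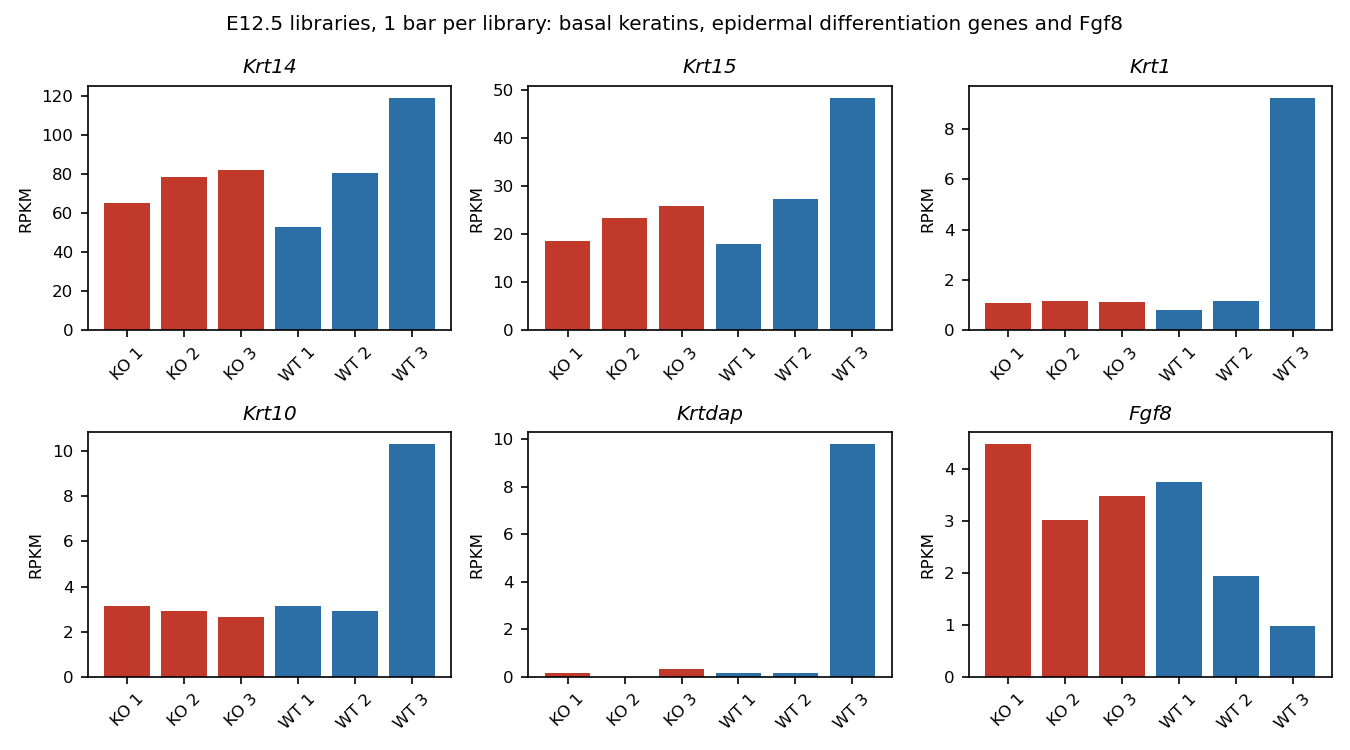
RPKM (vertical axis, linear) in the 6 libraries of E12.5, 1 bar per library, KO (red) left of WT (blue), for Krt14, Krt15, the differentiation genes Krt1, Krt10 and Krtdap, and Fgf8. WT replicate 3 is the highest bar for Krt14 (119 RPKM), Krt15, Krt1 (9.25 RPKM), Krt10 and Krtdap, and the lowest for Fgf8 (0.974 RPKM).

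Without that library Krt15, Krt14 and Krt5 still rose in WT between E12.5 and E11.5, with log2 fold changes of 1.97, 1.22 and 0.92 (adjusted p = 0.00243, 0.0111 and 0.00246, edgeR). Cdh1 (0.22, adjusted p = 0.102), Trp63 (0.29, adjusted p = 0.130) and Grhl3 (0.32, adjusted p = 0.248, edgeR) lost the call. The median over the 10 genes was 0.31 without it and 0.57 with it. These 3 calls were also lost without E11.5 WT replicate 1 or E11.5 WT replicate 3 (adjusted p from 0.0568 to 0.131, edgeR), and that of Grhl3 without E11.5 WT replicate 2 (0.107) or E12.5 WT replicate 2 (0.0766, edgeR). With all 18 libraries in 1 fit they were lost as well (adjusted p = 0.0893 for Cdh1, 0.0571 for Trp63 and 0.0543 for Grhl3, edgeR), so these 3 calls were marginal. In that fit the estimates were 0.37 for Cdh1, 0.45 for Trp63 and 0.69 for Grhl3. Without E11.5 WT replicate 1 they were 0.36, 0.40 and 0.76, and without E11.5 WT replicate 3 they were 0.33, 0.36 and 0.65. Each estimate was lower than these without E12.5 WT replicate 3, at the values given above.

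Between the genotypes 0 of the 10 genes passed the test at any stage. At E9.5 0.0218% of 13785 genes were called, at E11.5 1.94% of 14582 (0.933% higher and 1.01% lower in Pitx1 KO) and at E12.5 0.0138% of 14475. At an unadjusted p under 0.05, 0 of the 10 genes passed at E9.5, 3 at E11.5 (Epcam, Cdh1 and Trp63) and 0 at E12.5. Over all genes tested, 566 of 13785 did so at E9.5, 3235 of 14582 at E11.5 and 2184 of 14475 at E12.5. DESeq2, run after the same filter on low counts, called 19 genes in all at E9.5, 1302 at E11.5 and 443 at E12.5. Of the 10 genes it called 0 at E9.5, 2 at E11.5 (Epcam, adjusted p = 0.00814, and Cdh1, adjusted p = 0.0297) and 0 at E12.5.

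**Figure D5:**
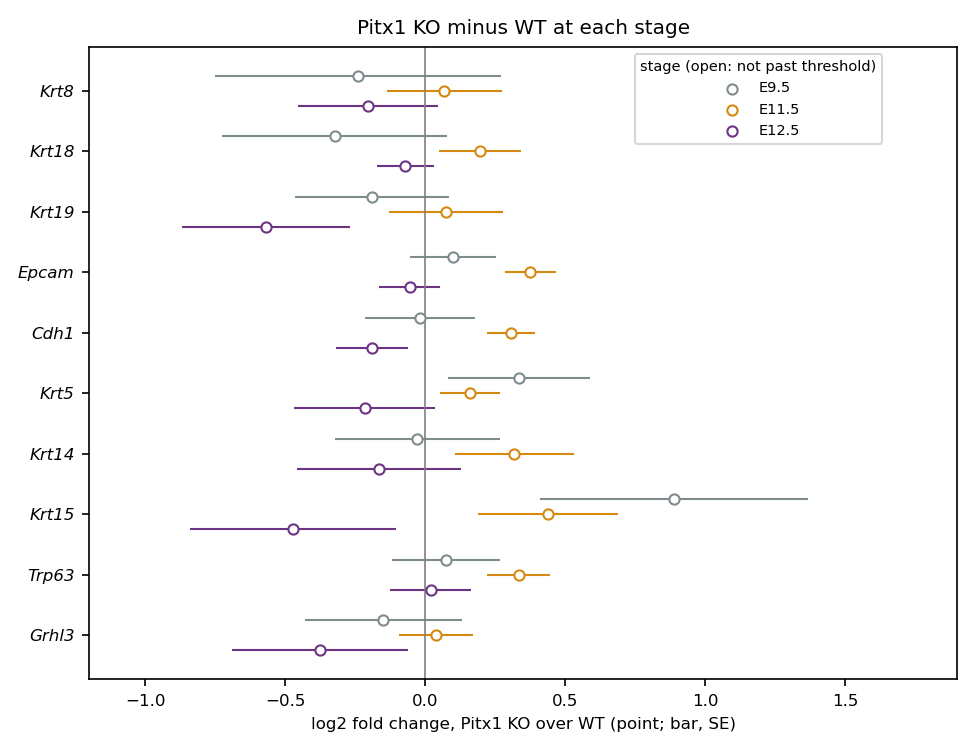
Log2 fold change of the 10 genes between Pitx1 KO and WT (horizontal axis, KO over WT; points, estimate; bars, SE) at E9.5 (grey), E11.5 (orange) and E12.5 (purple), from top to bottom within each gene. No point is past the threshold; all 10 estimates are above 0 at E11.5 and 9 of 10 are below 0 at E12.5.

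At E9.5 the log2 fold changes, Pitx1 KO over WT, ranged from -0.32 for Krt18 to 0.89 for Krt15, with a median of -0.02 over the 10 genes and -0.0061 over all genes tested. Krt15 was the only one of the 10 whose libraries did not overlap between genotypes, higher in Pitx1 KO (0.89 ± 0.48 SE, adjusted p = 0.999, edgeR), where 4.71% of all genes were without overlap in that direction and 4.58% in the other. Krt8 measured 46.1 ± 30.9 RPKM in Pitx1 KO and 54.3 ± 15.6 in WT (SD, n = 3 each), which differed by -0.24 ± 0.51 on the log2 scale (SE). Without KO replicate 2 and WT replicate 3 that value was -0.70 (adjusted p = 0.105, edgeR), and that of Krt18 was -0.62 (adjusted p = 0.331, edgeR) in place of -0.32. These libraries held the highest Krt8 and Krt18 of their genotype and were picked after the data were seen. Leaving them out left 2 libraries per genotype, so the shift of both values depends on that choice and is not a result on genotype.

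At E11.5 all 10 estimates were positive, with a median of 0.25 against -0.012 over all genes. Epcam, with the values given above, was higher in every Pitx1 KO library than in every WT library, at 22.8 ± 0.87 RPKM in Pitx1 KO and 17.6 ± 1.49 in WT (SD, n = 3 each), and did not pass (0.38 ± 0.090 SE, adjusted p = 0.0608, edgeR). Cdh1 was without overlap in the same direction, at 9.26 ± 0.28 RPKM in Pitx1 KO and 7.49 ± 0.49 in WT (0.31 ± 0.086 SE, adjusted p = 0.0818, edgeR). These were 2 of the 10 genes, and 13.7% of all genes tested were higher in Pitx1 KO without overlap and 14% lower. Trp63 had an estimate of 0.33 ± 0.11 (SE, adjusted p = 0.129, edgeR) with overlap of 1 WT library at 12.3 RPKM, and Krt14 one of 0.32 ± 0.21. Estimates were positive for 17 of 22 junction and membrane genes, 8 of 12 other epithelial regulators, 8 of 12 apical ridge and limb ectoderm genes, 5 of 12 hemidesmosome and basement membrane genes, 1 of 3 periderm and other keratin genes and 2 of 5 epidermal differentiation genes. The list medians were 0.11, 0.14, 0.35, -0.07, -0.02 and -0.05 in the same order. Of all these genes 2 were called, 1 of 12 hemidesmosome and basement membrane genes and 1 of 12 apical ridge and limb ectoderm genes. Over all genes tested at this stage 1.94% were called. The first was Frem1, an extracellular matrix gene of the skin basement membrane, at 15.7 ± 1.26 RPKM in Pitx1 KO and 11.1 ± 0.98 in WT (0.50 ± 0.089 SE, adjusted p = 0.0277, edgeR). The other was Wnt7a, the dorsal ectoderm signal, at 5.74 ± 0.54 RPKM in Pitx1 KO and 3.68 ± 0.35 in WT (0.64 ± 0.13 SE, adjusted p = 0.0382, edgeR). In this stage depth was higher in every Pitx1 KO library than in every WT library, and its part in these differences was not tested.

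At E12.5 9 of the 10 estimates were negative, Trp63 being the exception at 0.02 ± 0.14 (SE), with a median of -0.20 against -0.00068 over all genes. The groups overlapped for all 10 genes, where 11.4% of all genes were higher and 10.4% lower in Pitx1 KO without overlap. Krt19, at 3.66, 5.44 and 5.96 RPKM in Pitx1 KO and 4.85, 7.01 and 10.4 in WT, had the most negative estimate (-0.57 ± 0.30 SE, adjusted p = 0.406, edgeR). Krt15 had -0.47 ± 0.37 (SE, adjusted p = 0.578, edgeR). Without WT replicate 3 the median was -0.00046, Krt15 was at 0.00072 and Krt19 at -0.24 (adjusted p = 0.728, edgeR).

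The change of the KO effect between stages was tested as an interaction, and 0 of the 10 genes passed in either interval, where 0.0261% of 15353 genes passed from E9.5 to E11.5 (0.0130% in each direction) and 0.00653% of 15305 from E11.5 to E12.5. At an unadjusted p under 0.05, 0 and 2 of the 10 did, in that order. DESeq2 called 0 of the 10 in each, where it called 384 and 120 genes in all. Over all genes tested, 2340 of 15353 and 1582 of 15305 had an unadjusted p under 0.05. From E11.5 to E12.5 all 10 estimates were negative, with a median of -0.43 and -0.0084 over all genes. Those signs follow from the estimates within each stage, given above, and are not a further result. The unadjusted pair were Cdh1 (-0.51 ± 0.16 SE, adjusted p = 0.368, edgeR) and Epcam (-0.44 ± 0.14 SE, adjusted p = 0.374, edgeR). Without E12.5 WT replicate 3 the median was -0.33, Cdh1 was at -0.36 and Epcam at -0.34. The 2 genotype comparisons behind each interaction have no library in common, but both interactions use the E11.5 libraries.

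Other epithelial genes changed in both directions between the stages. Between E11.5 and E9.5, where 50.5% of all genes were called in Pitx1 KO and 55.8% in WT, of the 12 tested hemidesmosome and basement membrane genes, 3 rose and 2 fell in Pitx1 KO, and 4 rose and 2 fell in WT. Col17a1, a collagen that anchors basal keratinocytes, rose 17.9-fold in Pitx1 KO (adjusted p = 2.12e-05, edgeR) and 18.7-fold in WT (adjusted p = 1.18e-05, edgeR). Krt17, a keratin of periderm and skin appendages, averaged 5.18 ± 0.85 RPKM in Pitx1 KO and 8.34 ± 1.25 in WT at E11.5, against 0.347 ± 0.064 in Pitx1 KO and 0.276 ± 0.11 in WT at E9.5 (SD, n = 3 each), and rose by 3.81 ± 0.31 in Pitx1 KO and by 4.90 ± 0.31 in WT on the log2 scale (SE). Of 6 tested periderm and other keratin genes 2 rose and 3 fell in each genotype, Krt7, a simple keratin, among those that fell (0.498-fold in Pitx1 KO and 0.487-fold in WT). Of 22 junction genes 8 rose and 9 fell in Pitx1 KO, and 7 rose and 10 fell in WT. Of 12 apical ridge and limb ectoderm genes 2 rose and 2 fell in Pitx1 KO, and 1 rose and 3 fell in WT. En1, a gene of the ventral limb ectoderm, rose in both genotypes (1.79 ± 0.39 in Pitx1 KO and 1.18 ± 0.36 in WT, SE), and Fgf8 rose in Pitx1 KO (1.52 ± 0.30 SE, adjusted p = 0.000901, edgeR), with 0.69 ± 0.29 in WT (adjusted p = 0.0609, edgeR). Sp8, a factor of the apical ridge that neural tissue also expresses, fell in both (-0.74 ± 0.14 in Pitx1 KO and -1.49 ± 0.15 in WT, SE), and so did Wnt6, an ectodermal Wnt gene (-0.37 ± 0.12 in Pitx1 KO and -0.71 ± 0.12 in WT, SE). Without both E9.5 libraries that stand apart, 47.2% of all genes were called in Pitx1 KO and 54.3% in WT. In that setting 6 hemidesmosome and basement membrane genes rose and 3 fell in Pitx1 KO, and 5 rose and 1 fell in WT. Of the junction genes 8 rose and 6 fell in Pitx1 KO and 7 rose and 10 fell in WT, of the periderm and other keratin genes 2 rose and 2 fell in each genotype, and of the apical ridge genes 4 rose and 2 fell in Pitx1 KO and 3 rose and 4 fell in WT.

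Between E12.5 and E11.5, where 41.4% of all genes were called in Pitx1 KO and 33.3% in WT, 7 of the 12 hemidesmosome and basement membrane genes rose and 1 fell in Pitx1 KO, and 6 rose and 1 fell in WT. Col17a1 averaged 10.3 ± 1.86 RPKM in Pitx1 KO and 11.01 ± 2.52 in WT at E12.5, against 2.99 ± 1.25 in Pitx1 KO and 2.91 ± 1.10 in WT at E11.5 (SD, n = 3 each), and rose by 1.70 ± 0.35 in Pitx1 KO and by 1.85 ± 0.35 in WT on the log2 scale (SE). The gene that fell in each was Frem1 (-1.17 ± 0.16 in Pitx1 KO and -1.35 ± 0.16 in WT, SE). Of 22 junction genes 2 rose and 2 fell in Pitx1 KO and 9 rose and 1 fell in WT. Dsc3, a desmosomal cadherin of stratified epithelia, and Pkp3, a desmosomal plaque gene, were the 2 that rose in Pitx1 KO (1.83-fold and 1.62-fold), and both rose in WT as well (2.51-fold and 1.91-fold). Of 5 tested periderm and other keratin genes 2 rose in Pitx1 KO and 4 in WT, Krt17 by 4.48-fold in Pitx1 KO and 2.71-fold in WT. Of 12 apical ridge and limb ectoderm genes 2 rose and 5 fell in Pitx1 KO, and 2 rose and 3 fell in WT. Wnt4, a signal gene of that list, rose in both genotypes (0.69 ± 0.19 in Pitx1 KO and 1.24 ± 0.20 in WT, SE). Fgf8 fell in both genotypes (-2.08 ± 0.39 in Pitx1 KO and -2.34 ± 0.40 in WT, SE), and so did Sp8 (-1.53 ± 0.23 in Pitx1 KO and -0.91 ± 0.23 in WT, SE). Without E12.5 WT replicate 3, when 22% of all genes were called in WT, 3 hemidesmosome and basement membrane genes rose and 1 fell in WT. Of the junction genes 6 rose and 0 fell, of 6 tested periderm and other keratin genes 2 rose, and of the apical ridge genes 2 rose and 3 fell. The folds in WT were then 3.24 for Col17a1, 2.21 for Dsc3, 1.67 for Pkp3 and 2.54 for Krt17, each past the threshold (adjusted p from 0.00276 to 0.0204, edgeR).

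For 3 of the genes, those with the most similar pattern were looked up among 12406 genes by the root mean square (RMS) difference of centred log2 CPM profiles over the 18 libraries, in which stage dominates. Krt14 was most like Jazf1 (0.411), Penk and Alcam (0.438 each), Krt15 (0.447) and Nfib (0.464), where the median gene differed by 2.13. Trp63 was most like Il13ra1 (0.154), Zfp273 (0.167), Rnd3 (0.188), Ngly1 (0.19) and Tns3 (0.191), with a median of 0.68. Krt18 was most like Rbpms (0.218), Podxl (0.236), Pcgf5 (0.27), Llgl2 (0.271) and Lama1 (0.274), with a median of 1.24. Krt15 was the only one of the 10 genes among these 15.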

How the data were processed

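Messenger RNA of 18 mouse libraries, 3 per genotype and stage, was sequenced. The submitters' processing notes name FastQC, TopHat2, Cuffdiff and the build mm9. How shared fragments were assigned, the annotation and the strand setting were not given in the sources used here. There is 1 table per stage. Raw fragments, as the authors deposited them, are estimated counts, some of them fractional. RPKM values, the authors' normalization for gene length and library size, were deposited beside them and give the levels in the text. Replicates, numbered from 0 in the tables, were taken in order as 1 to 3. Of 23929 genes per table, 25 were left out because estimation had failed in at least 1 library, as were 2 date names, made from symbols by spreadsheet software, that stand for more than 1 gene, which left 23900.

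Fragments were rounded (1.79% were not whole) and tested with edgeR 4.0.16 in R 4.3.3 (TMM, filterByExpr, robust quasi-likelihood F test, Benjamini-Hochberg adjustment over all genes tested, threshold 0.05). Genotypes were compared within a stage from 6 libraries, and stages and interactions in 12 libraries. SE was derived from the F statistic. Every pair of replicates differed by more than sampling noise (chi-square per degree of freedom at least 7.88). Each test was also run on counts simulated with the spread that edgeR estimated, and the outcome is not given here. In the fits across stages changes were planted in WT only, so recovery in Pitx1 KO was not checked. The members and gene lists were chosen with earlier results of these data known. Named genes are all 10 members, Pitx1, up to 4 genes per list and comparison past the threshold by smallest p, and the 5 genes most like Krt14, Trp63 and Krt18 among those with a mean of at least 1 RPKM (log2 CPM, prior count 2). Others, such as Cldn18, Krtdap and Krt10, were picked once their values were known. The alternatives run were RLE scaling, no filter, DESeq2 1.42.0, a replicate block, all 18 libraries in 1 fit and leaving out each library.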

Additional observations from a re-analysis of the deposited data

How the results depend on the processing

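No result changed its direction under any alternative, except values that did not pass the test in either setting. Counts of genes past the threshold between Pitx1 KO and WT depended on the method. At E9.5 the count was 3, against 19 with DESeq2, 0 with the replicate block and 0 with all 18 libraries in 1 fit. It was 6 without both E9.5 libraries that stand apart (added after the data were seen), and 0 to 2 without single libraries. At E11.5 it was 283, against 521 with no filter, 1302 with DESeq2, 99 with the block, 693 with all 18 libraries and 9 to 640 without single libraries. Of the 10 members 1 passed there with no filter (Epcam, adjusted p = 0.0452, edgeR) and 2 with DESeq2. At E12.5 it was 2, against 5 with no filter, 443 with DESeq2, 381 with the block, 23 with all 18 libraries and 1 to 17 without single libraries. For the change of the KO effect from E9.5 to E11.5 the count was 4, against 384 with DESeq2 and 0 with the block. It was 15 with all 18 libraries, 1 without both E9.5 libraries that stand apart and 0 to 9 without single libraries. From E11.5 to E12.5 it was 1, against 2 with no filter, 120 with DESeq2 and 0 with all 18 libraries. Without single libraries it was 0 to 5 there.

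Between genotypes and in the interactions 0 members passed without any single library. Without single libraries 8 of 10 members passed in Pitx1 KO and 8 to 9 in WT between E11.5 and E9.5, among 6424 to 7248 and 7326 to 8347 genes. Between E12.5 and E11.5 3 to 5 passed in Pitx1 KO and 3 to 8 in WT, among 4664 to 6144 and 3410 to 4972 genes. The cause of these changes was not tested. The main tests used no pairing by replicate number. Same-numbered libraries had correlations of deviations from -0.275 to 0.196, with 0.122, -0.009 and 0.196 at E12.5 for replicates 1 to 3. At E12.5 the block gave more genes past the threshold between genotypes than the main test, as given above. With the replicate block 0 members passed between genotypes at each stage and in each interaction. Between E12.5 and E11.5 in WT, Krt19 passed with the block (adjusted p = 0.0299, edgeR) and Grhl3 did not (0.0743). No other call of a member between stages changed with the block.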
